A study of Homo sapiens with 4 samples.

Results

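DUSP4, DUSP5, DUSP6, SPRY2, SPRY4, SPRED1, ETV4, ETV5, FOSL1 and PHLDA1 are genes that ERK induces, and they are read here as the feedback and output genes of the MAPK pathway. They were picked by gene name and by no rule on their values, though with earlier results of these data known. They are 10 of the 26485 gene names in the deposited tables. Their mRNA was measured by RNA sequencing in SW1736 and 8505C, established cell lines of anaplastic thyroid cancer (ATC). The wt cells of either line are the parental cells, sensitive to paclitaxel, a drug that stabilizes microtubules. Per the study, the resistant SW1736-PTX and 8505C-PTX cells came from them by 6 months of paclitaxel, raised from 1 nM to 1.5 µM. They were then maintained at 1.5 µM. One library was made per group (n = 1), so the spread between cultures of 1 line is unknown, and errors of a single comparison are counting errors. The one test is of PTX against wt over both lines. The sources used here do not say whether a PTX line is 1 clone or a pool. Since only PTX cells were kept in the drug, selection by paclitaxel and exposure to it cannot be told apart.

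Growth factor receptors activate RAS, which passes the signal through the kinases RAF, MEK and ERK. Active ERK raises transcription of its own brakes, namely phosphatases of the DUSP family and inhibitors of the Sprouty and SPRED families, and of transcription factors such as ETV4, ETV5 and FOSL1. In thyroid cancer the pathway is often switched on by mutation of BRAF, and both SW1736 and 8505C are known to carry such a mutation. The level of these genes is therefore widely used as a readout of pathway activity.

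A gene was called here, and is said to have risen or fallen, when the log2 ratio of FPKM + 0.1 passed 1.5 in either direction, and a gene was compared when it exceeded 0.5 FPKM in at least 1 library of the comparison. FPKM are fragments per kilobase of transcript, scaled to the reads aligned. FOSL1 was the 1 member of the 10 that fell in both PTX lines, as did 2.41% of all genes compared in both. In SW1736-PTX, DUSP4 and DUSP5 rose and SPRY2 fell as well, whereas in 8505C-PTX the other 9 members stayed within 2-fold of wt. Of all genes compared, 25.9% were called in SW1736 and 20.9% in 8505C. The 4 calls in SW1736 went both ways, with the phosphatase pair higher and FOSL1 and the Sprouty gene lower.

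The depth, taken from the ratio of coverage to FPKM, lay between 43.5 and 57.9 M reads per library. Across 14692 expressed genes, Pearson's r on log2(FPKM + 0.1) was 0.767 between the library labelled SW1736-PTX and SW1736 wt, 0.873 between it and 8505C wt, and 0.933 between it and 8505C-PTX. For reference, r was 0.845 between the wt lines and 0.877 between 8505C wt and 8505C-PTX. Genes are not independent replicates, so these values only describe the libraries. Among the lineage genes, the thyroid transcription factors followed the same order, whereas the endothelial gene CDH5 did not. NKX2-1, a thyroid transcription factor, was listed at 0 in SW1736 wt and lay between 30.5 and 39.0 FPKM in the other 3 libraries. PAX8 and FOXE1, the other thyroid transcription factors, were at 38.2 and 26.6 FPKM in SW1736 wt and at most 0.511 FPKM in the rest. Of 7 thyroid lineage markers, 2 were above 0.5 FPKM in each SW1736 library and 1, NKX2-1, in each 8505C library. The 2 were PAX8 and FOXE1 in SW1736 wt, but NKX2-1 and, at 0.511 FPKM, FOXE1 in SW1736-PTX. TG was at most 0.00586 FPKM, and TSHR and SLC5A5 were listed at 0 throughout. The summed level of the 7 markers ranged from 30.7 to 64.8 FPKM. Of 4 leukocyte markers only CD68, also made by other cells, exceeded 0.5 FPKM, PTPRC was at most 0.0197 FPKM and the summed level was 5.86 to 43.0 FPKM. Of 3 endothelial markers, CDH5 reached 55.9 FPKM in 8505C wt and 4.53 FPKM in 8505C-PTX and no other value exceeded 0.5 FPKM. The fibroblast collagens COL1A1 and COL1A2 were at 153 and 104 FPKM in SW1736 wt and at most 2.19 FPKM elsewhere, and the 4 fibroblast markers summed to between 0.335 and 258 FPKM. Between 3 and 4 of 6 epithelial markers, and all 3 mesenchymal markers, exceeded 0.5 FPKM in every library. The library labelled SW1736-PTX thus stands nearer to 8505C than to its labelled parent, and every SW1736 value below rests on it. Members and lists are therefore given against 8505C wt as well, a comparison that shares its control with that of 8505C-PTX. The part of these lineage genes in the members' values was not tested. In such bulk RNA, fewer cells making a transcript and less of it per cell cannot be told apart.

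All 10 members exceeded 0.5 FPKM in all 4 libraries, so none was lost to the filter. The lowest value was 3.10 FPKM, for SPRED1 in SW1736-PTX, and the highest was 423 FPKM, for FOSL1 in SW1736 wt. These correspond to between about 606 and 35222 reads per gene and library, and 3 reads would have given at most 0.0405 FPKM. The median of the members was 17.2 FPKM for wt SW1736 and 21.0 for its PTX line, and 20.8 and 24.4 for wt 8505C and its PTX line, against a median of 8.64 to 9.81 FPKM over all genes above 0.5 FPKM. SPRED1 was below the median gene in every library, DUSP6 and SPRY4 were so in SW1736 wt, and SPRY2 was so in both PTX libraries. FOSL1 alone made up 72.5% of the members' summed FPKM in SW1736 wt and 51.7% in 8505C wt, but 22.8% in SW1736-PTX and 14.0% in 8505C-PTX. Without it, the sum was 160 FPKM for wt SW1736 and 183 for its PTX line, and 214 and 187 for wt 8505C and its PTX line.

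**Figure D1:**
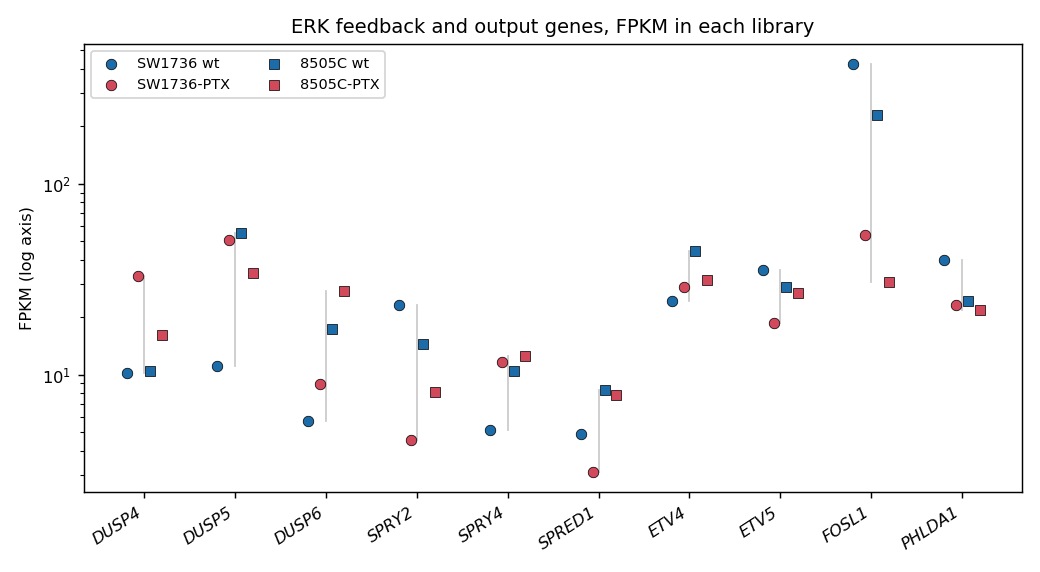
FPKM (log axis) of each member in each library, with wt in blue, PTX in red, SW1736 as circles and 8505C as squares; grey lines span lowest to highest. FOSL1 ran from 30.5 to 423 FPKM, with both wt libraries above both PTX libraries, while ETV4, ETV5 and PHLDA1 stayed within a 2-fold range.

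Among the outputs of the pathway, FOSL1 encodes FRA1, a subunit of the AP-1 transcription factor. FOSL1 occupies chromosome 11, 65892136 to 65900526 (minus strand, hg38, as all positions here), and its MANE Select transcript has 4 exons and 1702 bp. It measured 423 FPKM in wt SW1736 and 54.0 in its PTX line, and 229 and 30.5 FPKM in wt 8505C and its PTX line. Both wt libraries were above both PTX libraries. FOSL1 fell by 2.97 on the log2 scale in SW1736 (counting interval -3.01 to -2.93) and by 2.91 in 8505C (-2.97 to -2.85), which are 7.84-fold and 7.53-fold lower levels. Against 8505C wt, SW1736-PTX was lower by a log2 difference of -2.09 (-2.13 to -2.04). Ranked by the smaller decrease of the lines, FOSL1 was number 32 of the 13304 genes compared in both, of which 320 were called lower in both (2.41%). In wt cells it was the most abundant member; in 8505C-PTX DUSP5 and ETV4 were above it.

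PHLDA1, which encodes a protein with a pleckstrin homology-like domain and is induced by growth factors, lies on chromosome 12 (76025447 to 76031776, minus strand). It measured 40.0 FPKM in wt SW1736 and 23.2 in its PTX line, and 24.3 and 21.9 FPKM in wt 8505C and its PTX line. SW1736 wt stood above the other libraries, which lay close together. The log2 fold change was -0.78 in SW1736 (-0.83 to -0.74) and -0.15 in 8505C (-0.20 to -0.10), both short of the limit of 1.5, and it was -0.07 for SW1736-PTX against 8505C wt.

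DUSP4, DUSP5 and DUSP6 encode phosphatases that remove the activating phosphates of ERK, DUSP4 and DUSP5 in the nucleus and DUSP6 in the cytoplasm. DUSP4 (chromosome 8, 29333062 to 29350750, minus strand) measured 10.2 FPKM in wt SW1736 and 33.1 in its PTX line, and 10.5 and 16.1 FPKM in wt 8505C and its PTX line. The wt libraries were nearly equal and both PTX libraries were above them. DUSP4 rose by 1.69 on the log2 scale in SW1736 (1.64 to 1.76), a 3.24-fold higher level, and was also called against 8505C wt, at 1.65 (1.60 to 1.73). In 8505C its log2 fold change was 0.62 (0.55 to 0.69), below the limit.

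DUSP5 (chromosome 10, 110497867 to 110511544, plus strand) measured 11.2 FPKM in wt SW1736 and 50.9 in its PTX line, and 55.1 and 34.3 FPKM in wt 8505C and its PTX line. SW1736 wt stood apart as low, and the other 3 libraries were within 2-fold of each other. The log2 fold change was 2.18 in SW1736 (2.11 to 2.27), the largest increase among the members, and -0.68 in 8505C (-0.74 to -0.63). Against 8505C wt, SW1736-PTX differed by only -0.11 (-0.16 to -0.06), so that the call of DUSP5 was absent in this comparison.

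DUSP6 (chromosome 12, 89347825 to 89352859, minus strand), whose product acts on ERK in preference to other MAP kinases, measured 5.72 FPKM in wt SW1736 and 8.89 in its PTX line, and 17.4 and 27.6 FPKM in wt 8505C and its PTX line. Here the lines were separated, with both 8505C libraries above both SW1736 libraries. Its log2 fold change with paclitaxel was 0.63 in SW1736 (0.53 to 0.75) and 0.67 in 8505C (0.60 to 0.74), and it was called in neither. Against 8505C wt, SW1736-PTX was at -0.96.

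The Sprouty genes SPRY2 and SPRY4 encode inhibitors that restrain signalling from receptors to RAS and RAF, and SPRED1 encodes a related protein that brings neurofibromin to the membrane to switch RAS off. SPRY2 (chromosome 13, 80335977 to 80340951, minus strand) measured 23.1 FPKM in wt SW1736 and 4.58 in its PTX line, and 14.5 and 8.14 FPKM in wt 8505C and its PTX line. Both PTX libraries were below both wt libraries. SPRY2 fell by 2.31 on the log2 scale in SW1736 (-2.47 to -2.21), a 5.06-fold lower level, and was called lower against 8505C wt too, at -1.64 (-1.80 to -1.53). In 8505C the log2 fold change was -0.83 (-0.95 to -0.72), below the limit.

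SPRY4 (chromosome 5, 142310427 to 142325055, minus strand) measured 5.16 FPKM in wt SW1736 and 11.7 in its PTX line, and 10.5 and 12.5 FPKM in wt 8505C and its PTX line. Only SW1736 wt was low. Its log2 fold change was 1.16 in SW1736 (1.08 to 1.27) and 0.25 in 8505C (0.18 to 0.33), and 0.15 for SW1736-PTX against 8505C wt, with no call. SPRY4-IT1, a transcript inside SPRY4 on the same strand, was listed at 0.266 to 1.20 FPKM, so a small part of the reads could have been shared. No other member overlapped another gene of the deposited tables.

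SPRED1 (chromosome 15, 38252851 to 38357249, plus strand) was the lowest member in all 4 libraries, with 4.92 FPKM in wt SW1736 and 3.10 in its PTX line, and 8.37 and 7.81 FPKM in wt 8505C and its PTX line. Both SW1736 libraries were below both 8505C libraries. The log2 fold changes of -0.65 in SW1736 (-0.77 to -0.56) and -0.10 in 8505C (-0.18 to -0.02) were not called, and SW1736-PTX differed from 8505C wt by -1.40.

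RefSeq promoter windows on GRCh38.p14 were found for 5 of the 10 members: DUSP6, SPRY2, SPRY4, SPRED1 and PHLDA1. The 250 bases before the RefSeq start site are shown for SPRY2 and SPRY4, which differed in the direction of their change, and for DUSP6, which was higher in both PTX libraries. All 3 are on the minus strand and are written 5′ to 3′. SPRY2 is chr13:80341127-80341376 (the first of 3 windows for this gene), SPRY4 is chr5:142324248-142324497 and DUSP6 is chr12:89352502-89352751. The RefSeq start sites of SPRY4 and DUSP6 lay 808 and 358 bp inside the gene as the deposited tables place it, and that of SPRY4 lay 2208 bp inside the GENCODE gene, so the SPRY4 window is within the gene and precedes only a start further downstream. Capitals mark GGAA, or TTCC on the other strand, the core letters that ETS factors such as ETV4 and ETV5 recognise.
SPRY2: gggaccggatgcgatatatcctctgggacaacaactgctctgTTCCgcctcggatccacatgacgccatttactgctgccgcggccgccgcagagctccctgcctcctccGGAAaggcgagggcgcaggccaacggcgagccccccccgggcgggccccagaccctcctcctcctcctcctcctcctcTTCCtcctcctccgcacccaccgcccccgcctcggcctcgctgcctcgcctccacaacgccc
SPRY4: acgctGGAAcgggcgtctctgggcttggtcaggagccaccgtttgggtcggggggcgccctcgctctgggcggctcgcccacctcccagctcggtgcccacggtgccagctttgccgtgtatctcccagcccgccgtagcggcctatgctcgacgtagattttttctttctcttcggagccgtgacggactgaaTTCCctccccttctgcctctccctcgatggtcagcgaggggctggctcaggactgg
DUSP6: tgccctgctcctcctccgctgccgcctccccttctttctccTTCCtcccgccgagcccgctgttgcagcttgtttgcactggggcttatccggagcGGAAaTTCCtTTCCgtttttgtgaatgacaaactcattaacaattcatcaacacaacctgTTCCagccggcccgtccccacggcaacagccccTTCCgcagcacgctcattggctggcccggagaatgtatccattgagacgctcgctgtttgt
GGAA on either strand occurred 3 times before SPRY2, 2 times before SPRY4 and 6 times before DUSP6, against a median of 3 over 35116 windows, of which 92.7% held at least 1 match and 9.14% held 6 or more. Longer motifs were searched on both strands of the 300-base windows: TGAGTCA (AP-1, in 4.95% of all windows), TGACGTCA (CRE, 1.85%), CCGGAAGT (ETS, 4.14%), TGAATGAA (1.65%) and TGAATGGA (1.03%) of the repressor Capicua, and the serum response element (1.29%). None of these letters was in the windows of the 5 members, which describes these windows alone.

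ETV4 and ETV5 encode ETS transcription factors of the PEA3 group, which carry the ERK signal to further genes. ETV4 (chromosome 17, 43527843 to 43546432, minus strand) measured 24.3 FPKM in wt SW1736 and 29.0 in its PTX line, and 44.7 and 31.4 FPKM in wt 8505C and its PTX line. The PTX libraries lay between the wt libraries. Its log2 fold change was 0.25 in SW1736 (0.18 to 0.32) and -0.51 in 8505C (-0.57 to -0.45), and SW1736-PTX differed from 8505C wt by -0.63.

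ETV5 (chromosome 3, 186046317 to 186109112, minus strand) measured 35.5 FPKM in wt SW1736 and 18.7 in its PTX line, and 28.8 and 26.9 FPKM in wt 8505C and its PTX line. The wt libraries were above the PTX libraries, narrowly so in 8505C. The log2 fold changes of -0.92 in SW1736 (-0.98 to -0.87) and -0.10 in 8505C (-0.15 to -0.04) were below the limit, as was that of -0.62 for SW1736-PTX against 8505C wt.

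Taking the members as a group, 4 of 10 were called in SW1736-PTX against SW1736 wt, 2 higher and 2 lower. Of all 14202 genes compared there, 25.9% were called, 15.7% higher and 10.2% lower. The median log2 fold change of the members was -0.20, against 0.01 over all genes compared, and 5 of 10 members were within 2-fold, against 59.6% of all genes. In 8505C, 1 of 10 members was called, FOSL1. Of all 13794 genes compared in that line, 20.9% were called, 15.0% higher and 5.89% lower. The members' median was -0.12, against 0.11 over all genes, and 9 of 10 were within 2-fold, against 64.5% of all genes. With 10 members, neither count is read as a result about the list. By direction alone, 5 members were lower in both PTX libraries, 3 were higher in both and 2, DUSP5 and ETV4, differed in direction. Of the 13304 genes compared in both lines, 4347 were lower in both and 5006 higher in both. Agreement between the lines was thus common and is not read as a trait of the members.

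Tested over both lines with the line as a block (limma, 1 residual degree of freedom, n = 2 pairs), none of the members passed a Benjamini-Hochberg adjusted p of 0.05, nor did any of the 14692 genes tested (0.00%), of which 3131 had an unadjusted p under 0.05. FOSL1 had a mean log2 difference of -2.94 ± 0.27 (SE) between PTX and wt, lower in 2 of 2 lines, with an adjusted p of 0.119 by limma, where the smallest of any gene was 0.107. SPRY2 followed at -1.57 ± 0.48 (adjusted p = 0.183 by limma) and DUSP4 at 1.15 ± 0.40 (adjusted p = 0.211 by limma), each in the same direction in 2 of 2 lines. The adjusted p of the other 7 members lay between 0.319 and 0.843. This test includes the library labelled SW1736-PTX, without which only 1 pair is left and no test can be made. The pairing of that library with SW1736 wt rests on its label, and every SE and adjusted p here rests on that pairing.

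**Figure D2:**
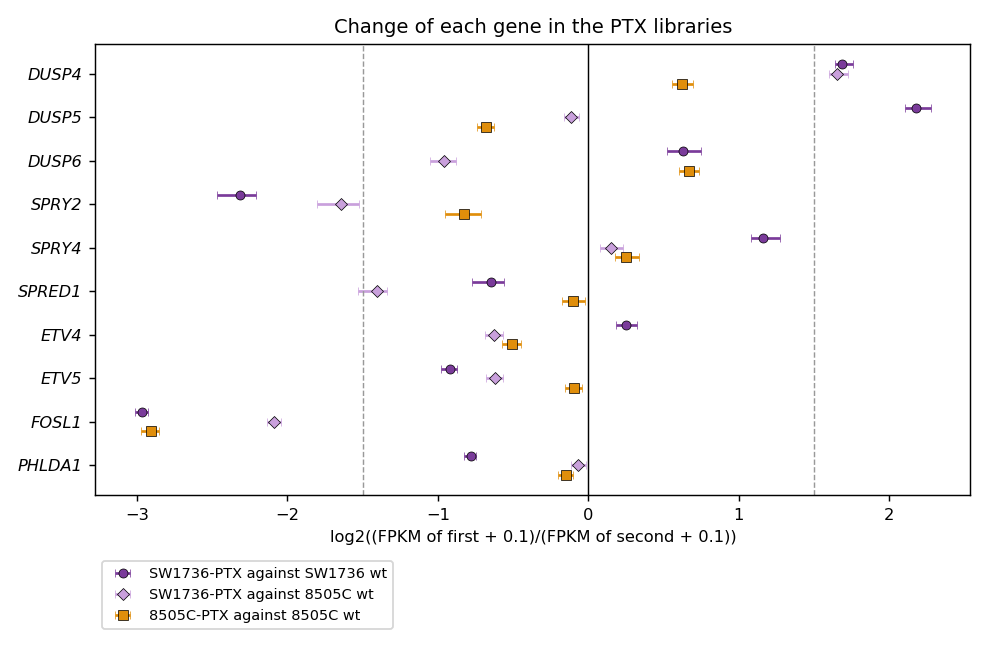
Log2 fold change of each member (x axis) in SW1736-PTX against SW1736 wt (dark circles), SW1736-PTX against 8505C wt (pale diamonds) and 8505C-PTX against 8505C wt (orange squares); bars are 95% counting intervals and dashed lines mark the limit of 1.5. FOSL1 is beyond the limit in all 3 comparisons, and DUSP5 is beyond it against SW1736 wt only.

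**Figure D3:**
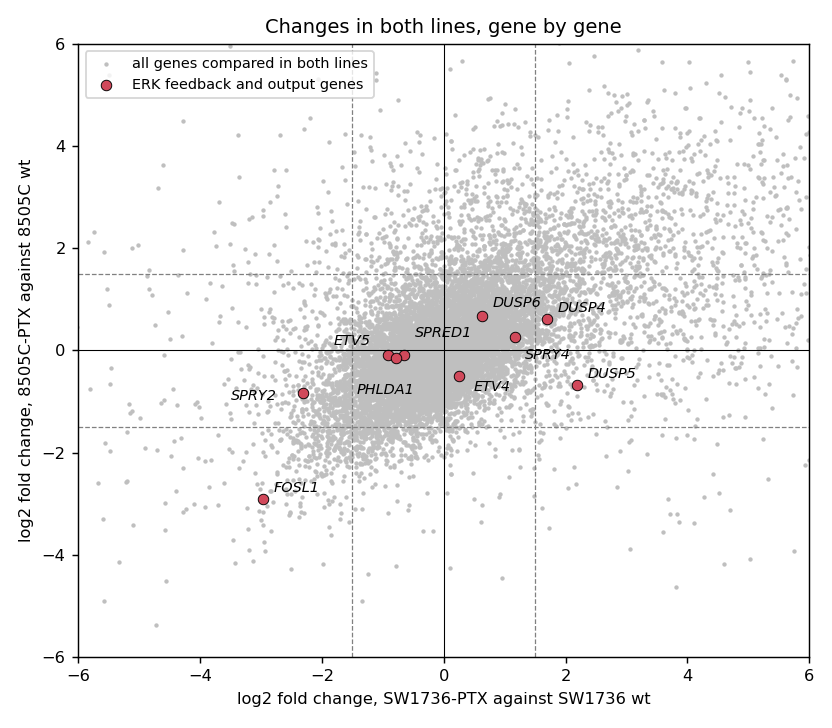
Log2 fold change in SW1736 (x axis) and in 8505C (y axis) for genes compared in both lines (grey) and the 10 members (red); 214 genes beyond 6 on either axis are not drawn, and dashed lines mark the limit of 1.5. FOSL1, at -2.97 and -2.91, is the one member in a corner beyond both limits.

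With 8505C wt as the control in place of SW1736 wt, 3 of 10 members were called in SW1736-PTX: DUSP4 higher, and SPRY2 and FOSL1 lower. The share over the 13824 genes compared was 20.4%, 15.1% higher and 5.23% lower. DUSP4, SPRY2 and FOSL1 were thus called in the same direction under either wt control and DUSP5 was not, although SPRY2 was at -1.48 against 8505C wt with a pseudocount of 1 in place of 0.1, short of the limit. The members' median was -0.62 here, against 0.10 over all genes, and 6 of 10 were within 2-fold, against 66.1% of all genes.

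Between the wt lines, 2 of 10 members were called, DUSP5 at -2.29 (-2.39 to -2.22) and DUSP6 at -1.58 (-1.71 to -1.50), both lower in SW1736 wt than in 8505C wt. Of the 13457 genes compared, 17.6% were called, 7.73% lower in SW1736 wt. DUSP4 was at -0.03, and its counting interval (-0.11 to 0.05) was the only one of 50 for the members that held 0. FOSL1 was 1.84-fold higher in SW1736 wt. Between the PTX lines 1 of 10 was called, DUSP6, lower in SW1736-PTX at -1.62 (-1.71 to -1.56). This background was 7.79% of 13986 genes, 3.70% lower. DUSP6 was hence the 1 member called between the lines both with and without paclitaxel, though with a pseudocount of 1 the wt difference was -1.45 and not called. SPRED1 and ETV4 were also lower in both SW1736 libraries than in both 8505C libraries, with no call, and the difference in DUSP5 was 0.57 between the PTX lines.

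Ratios within a library do not depend on its scaling. FOSL1 was 13.4 times as high as FOSL2, the gene of a related AP-1 subunit, in SW1736 wt and 7.64 times in 8505C wt, but 1.33 times in SW1736-PTX and 0.725 times in 8505C-PTX. FOSL2 itself lay between 30.0 and 42.0 FPKM. The ratio of SPRY2 to SPRY4 was 4.49 in SW1736 wt and 1.38 in 8505C wt, and 0.392 and 0.651 in SW1736-PTX and 8505C-PTX, so that SPRY2 was the higher of the pair in wt and the lower in PTX cells. For ETV5 to ETV4 the ratio was 1.46 in SW1736 wt and between 0.644 and 0.855 in the other libraries. DUSP5 exceeded DUSP6 in all libraries, from 1.24 times in 8505C-PTX to 5.73 times in SW1736-PTX.

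**Figure D4:**
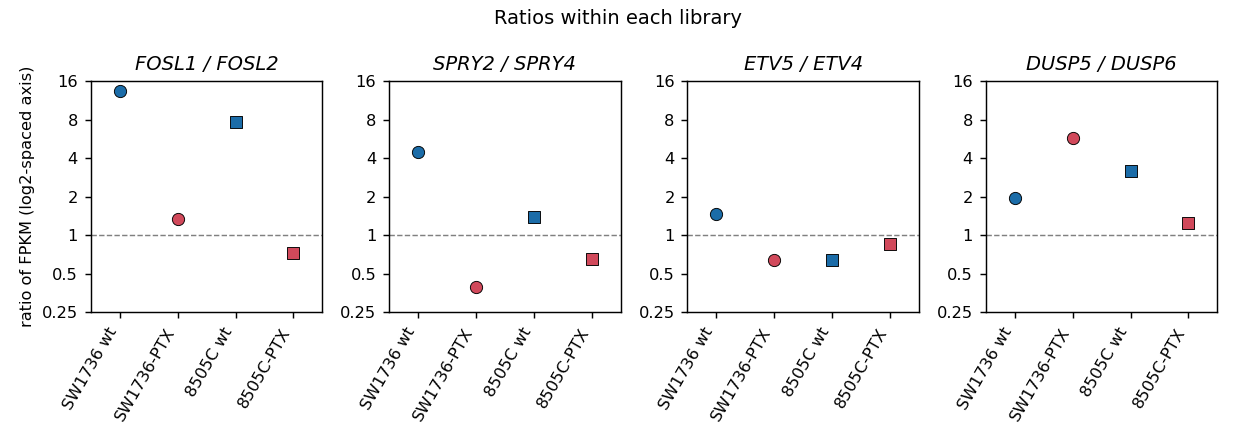
Ratio of FPKM (log2-spaced axis) of related genes in each library, wt in blue and PTX in red, SW1736 as circles and 8505C as squares; the dashed line is a ratio of 1. FOSL1/FOSL2 and SPRY2/SPRY4 are lower in both PTX libraries than in both wt libraries.

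Of 18 further genes of the same families, 17 could be compared in SW1736, with 5 higher and 0 lower, and 16 in 8505C, with 2 higher and 1 lower. The medians were 0.39 and 0.17. Against 8505C wt, SW1736-PTX had 1 higher and 0 lower of 16 (median 0.39). That 1 was DUSP8, at 1.97 on the log2 scale, which was not called against SW1736 wt. None of the 5 calls against SW1736 wt was made with that control. In that order, 29.4%, 18.8% and 6.25% were called. Of all genes compared, 25.9% were called in SW1736 (median 0.01), 20.9% in 8505C (median 0.11) and 20.4% against 8505C wt (median 0.10). With at most 18 genes, no count for this list or those below is read as a result about the list. SPRY1, another Sprouty gene, rose in both lines, from 1.49 to 5.13 FPKM for SW1736 cells and from 2.25 to 18.7 for 8505C cells, unlike SPRY2. With 8505C wt as the control of SW1736-PTX, SPRY1 was not called. DUSP1, a phosphatase induced by stress as well as by ERK, rose from 10.2 to 277 FPKM in SW1736 and was at 206 in 8505C wt and 187 in 8505C-PTX. The pattern of DUSP1 was that of DUSP5: low in SW1736 wt alone. DUSP9 rose from 0.300 to 2.90 FPKM in SW1736 and was at 0.986 and 0.879 in wt and PTX 8505C. SPRED2 fell from 26.2 to 7.64 FPKM in 8505C and was at 8.49 and 9.46 FPKM in wt and PTX SW1736.

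Of 18 other ERK-responsive genes, all were compared in SW1736, with 2 higher and 5 lower (median -0.41), and 17 in 8505C, with 0 higher and 3 lower (median -0.52). Against 8505C wt, 0 were higher and 6 lower of 17 in SW1736-PTX (median -0.73). In that order, 38.9%, 17.6% and 35.3% were called, against 25.9%, 20.9% and 20.4% of all genes compared. HMGA2, an architectural chromatin protein, fell in both lines, from 17.9 to 0.0921 FPKM for SW1736 cells and from 11.0 to 2.13 for 8505C cells. LIF, a cytokine, fell from 47.1 to 0.106 FPKM in SW1736 and was at 0.741 and 0.494 in wt and PTX 8505C. CXCL8, a chemokine, fell from 34.7 to 8.86 FPKM in 8505C and was at 1.02 and 2.52 in wt and PTX SW1736.

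The RAS-RAF-MEK-ERK core and its adaptors held 16 genes, all compared in both lines. In SW1736, 1 was called higher and 0 lower (median -0.53), and in 8505C 0 were called (median -0.25). None of the 16 was called in SW1736-PTX against 8505C wt (median -0.41). The shares called were 6.25%, 0% and 0%, against 25.9%, 20.9% and 20.4% of all genes compared. The call against SW1736 wt was KSR1, a scaffold of the kinases, which rose from 0.120 to 3.97 FPKM in SW1736 and was at 2.63 and 5.84 in wt and PTX 8505C. BRAF was at 5.10 and 2.08 FPKM in wt and PTX SW1736 and 4.50 and 3.36 in wt and PTX 8505C. MAPK3, which encodes ERK1, was at 13.0 and 32.8, and at 22.1 and 40.1 FPKM, with no call.

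Among 12 brakes on RAS and on receptors, 11 were compared in each line, with 1 higher and 1 lower in SW1736 (median -0.24) and 1 higher and 0 lower in 8505C (median 0.12). SW1736-PTX against 8505C wt gave 1 higher and 1 lower of 11 (median -0.18). These were CBLB at 2.18 and ERRFI1 at -2.26 on the log2 scale, and DAB2IP was not called there. In that order of comparisons, 18.2%, 9.09% and 18.2% of the brakes were called, against 25.9%, 20.9% and 20.4% of all genes. ERRFI1, a feedback inhibitor of the EGF receptor, fell from 27.0 to 3.86 FPKM in SW1736 and was at 18.9 and 21.6 in wt and PTX 8505C. DAB2IP, a RAS GTPase-activating protein, rose from 3.54 to 17.7 FPKM in SW1736 and was at 20.0 and 20.9 in wt and PTX 8505C. CBLB, a ubiquitin ligase of activated receptors, rose from 1.42 to 8.34 FPKM in 8505C and was at 2.39 and 6.75 in wt and PTX SW1736.

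Upstream, 12 receptor tyrosine kinases were listed, of which 11 were compared in SW1736, with 4 higher and 2 lower (median 0.43), and 10 in 8505C, with 3 higher and 0 lower (median 0.74). With 8505C wt as the control, 3 were higher and 1 lower of 10 in SW1736-PTX (median 0.46). The shares called were 54.5%, 30.0% and 40.0% in that order, against 25.9%, 20.9% and 20.4% of all genes compared. FGFR4 rose in both lines, from 0.154 to 8.24 FPKM for SW1736 cells and from 1.53 to 8.48 for 8505C cells. PDGFRB did as well, from 0.402 to 6.08 and from 0.0922 to 6.49 FPKM; it also stands among the fibroblast markers. FGFR2 fell from 13.7 to 0.166 FPKM in SW1736 and was at most 0.0110 in 8505C, and FGFR3 rose from 0.0127 to 7.30 FPKM in SW1736 and was at 3.39 and 7.67 in wt and PTX 8505C. ERBB3 rose from 0.367 to 3.69 FPKM in 8505C and was at 2.12 and 4.49 in wt and PTX SW1736.

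Of 12 transcription factors and repressors between ERK and its targets, all compared in both lines, 1 was higher and 2 lower in SW1736 (median -0.23), and 2 were higher and 1 lower in 8505C (median 0.17). In SW1736-PTX against 8505C wt, 1 was higher, ATXN1, and 0 lower of 12 (median -0.12). Called in that order were 25.0%, 25.0% and 8.33%, against 25.9%, 20.9% and 20.4% of all genes compared. ATXN1, a partner of Capicua, rose in both, from 3.24 to 10.4 FPKM and from 2.53 to 10.6 FPKM. ELK1, an ETS factor that ERK phosphorylates, fell from 47.3 to 14.4 FPKM in SW1736 and was at 19.9 and 13.2 in wt and PTX 8505C. ETS1 fell from 58.3 to 11.7 FPKM in 8505C, and was at 17.7 and 49.4 in wt and PTX SW1736, a log2 fold change of 1.48 that did not reach the limit.

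**Figure D5:**
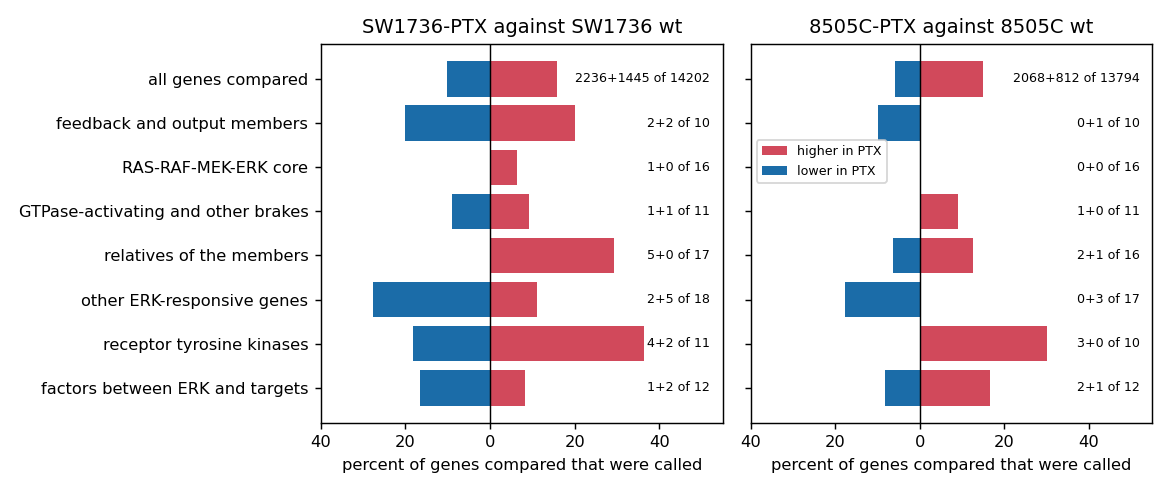
Percent of the genes compared that were called higher (red, to the right) or lower (blue, to the left) in PTX than in wt cells, for all genes, the members and the other lists; the text at the right gives higher plus lower calls and the number compared. The members show 2 and 2 calls of 10 in SW1736 and 0 and 1 of 10 in 8505C.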

How the data were processed

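The 4 libraries, 1 per group, were made from RNA of untreated (wt) and paclitaxel-selected (PTX) SW1736 and 8505C, and samples were assigned to groups by their titles. Reads were single-end, 75 bp. Per the methods of the study, the authors ran Cutadapt and ERNE to mask adapters and trim, STAR for alignment to hg38, and StringTie to quantify genes. The annotation and the versions of ERNE, STAR and StringTie are not given in the sources used here. The deposited coverage is the mean read depth per base and is not scaled for library size. The FPKM deposited by the authors are scaled to gene length and aligned fragments. The TPM deposited by the authors are rescaled so that every library has an equal sum. Read counts were not used here, so no count model was run.

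Log2((first + 0.1)/(second + 0.1)) was computed on FPKM, with the rows of a repeated gene name summed. Genes above 0.5 FPKM in at least 1 library of a comparison were kept, and any log2 fold change beyond 1.5 in either direction was called; both limits are those of the study's methods. Library depth was taken from the highest ratio of coverage to FPKM (above 1 FPKM). Approximate reads of a gene were FPKM times depth times the length of its MANE Select transcript in GENCODE release 44 (for PHLDA1, its longest basic transcript). From these reads a 95% exact binomial interval of each ratio was computed, which covers counting error only. With 1 library per group, no line was tested on its own. PTX was tested against wt (two-sided) over both lines with limma 3.58.1 in R 4.3.3. The input was log2(FPKM + 0.1) of genes above 0.5 FPKM in any library. The fit had the line as a block, a mean-variance trend and Benjamini-Hochberg adjustment. Per the study, each PTX line derives from its wt line, and the pairing of the libraries rests on their labels. This test was chosen after the data were seen. The calls and intervals were tested on simulated data with counting noise alone, and the limma fit on simulated data with equal noise for every gene. Neither simulation holds the unknown spread between cultures, so neither shows how the methods do on these libraries.

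The 10 members and the other gene lists were chosen with earlier results of these data known. Named from the other lists were genes called in the same direction in both lines, and the 2 largest calls per list and line; BRAF and MAPK3 were added for their place in the pathway. Further genes outside the lists were named by their likeness to the members' mean profile. The ratios between relatives, the counts within 2-fold and the search for GGAA were added after the values were seen. Alternatives changed the pseudocount (1 or 0.01), the FPKM filter, the unit, the centring, the log2 limit (1) and the rows used. Promoter windows came from RefSeq on GRCh38.p14, the same assembly as hg38. Proteins were not analysed here, and some items are not reported here. Python 3.11.15, NumPy 2.4.6, pandas 2.3.3, SciPy 1.17.1 and matplotlib 3.10.9 were used.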

Additional observations from a re-analysis of the deposited data

Results flagged for a closer look

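DUSP5 and ETV4 moved in opposite directions in the 2 lines; with 1 library per group these differences were not tested. The log2 fold change of DUSP5 was 2.18 in SW1736 and -0.68 in 8505C, and that of ETV4 was 0.25 in SW1736 and -0.51 in 8505C. DUSP5 was called in SW1736 alone and ETV4 in neither line. For both genes the counting intervals of the lines, which cover counting error only, did not overlap. The opposite directions rest on SW1736 wt as the control. Against 8505C wt, both genes were lower in SW1736-PTX too. DUSP5 was at 50.9 against 55.1 FPKM there, and ETV4 at 29.0 against 44.7 FPKM.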

How the results depend on the processing

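The paired test over both lines, with the line as a block, called 0 of 14692 genes (limma, adjusted p under 0.05; 3131 at an unadjusted p under 0.05), and leaving out either line leaves 1 pair and no test. Within a line each group had 1 library, so no replicate could be left out. Under 8 alternatives in each of the 5 comparisons, no member's log2 fold change turned its sign (0 of 400 values), and 8 of 400 member calls differed. In SW1736-PTX against SW1736 wt the number of members called was 4 in all alternatives except a log2 limit of 1, which added SPRY4 (5); in 8505C it was 1 throughout. Between the wt lines it was 1 in place of 2 with a pseudocount of 1, which took DUSP6 to -1.45. A log2 limit of 1 raised it to 3 by adding SPRY4. Between the PTX lines it was 3 in place of 1 with a log2 limit of 1, which added DUSP4 and SPRED1. Against 8505C wt, SPRY2 in SW1736-PTX was at -1.48 with a pseudocount of 1, short of the limit. Centring took SPRED1 there to -1.50, just past the limit, and a log2 limit of 1 called SPRED1 at -1.40. The counts over all genes moved more. In SW1736 the 3681 calls became 2063 with a pseudocount of 1, 1701 with an FPKM above 0.5 in both libraries and 5732 with a log2 limit of 1. In 8505C the 2880 calls became 1442, 1609 and 4892. Between the wt lines the 2375 became 1183, 896 and 3836, between the PTX lines the 1090 became 463, 513 and 2066, and against 8505C wt the 2814 became 1381, 1461 and 4686, in the same order. Centring shifted the 8505C comparison by -0.11 on the log2 scale, and SW1736 by -0.01. At between 606 and 35222 approximate reads, counting error was at most 0.15 on the log2 scale; variation between cultures is the limit that these data cannot show.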

Other observations

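The mean profile of the members over the 4 libraries, on log2(FPKM + 0.1) centred per gene, was -0.06 for wt SW1736 and -0.24 for its PTX line, and 0.34 and -0.04 for wt 8505C and its PTX line. Among 10052 genes outside the lists with more than 5 FPKM in at least 1 library, the nearest by Euclidean distance were SNRNP27 (distance 0.0646), TP53BP2 (0.0657), BIRC6 (0.0660), MRPL49 (0.0689) and KMT2D (0.0705). With 4 libraries such likeness is a description alone. The mean level of the 9 members other than FOSL1, on the log2 scale, was 3.75 for wt SW1736 and 3.89 for its PTX line, and 4.29 and 4.20 for wt 8505C and its PTX line, so it differed more between the wt lines than between wt and PTX cells of either line.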
